A study of Mus musculus with 17 samples.

Results

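The heat shock and small chaperones of the mouse diaphragm, the sheet of muscle that drives breathing, were followed as 10 genes: Hspa1a, Hspa1b, Hspa8, Hsph1, Hsp90aa1, Dnajb1, Hspb1, Hspb7, Cryab and Bag3. They were chosen by symbol, each matching 1 row among the 47643 genes of the expression table, and all 10 passed the filter on low values that kept 13305 genes. RNA from the diaphragm of 17 mice was sequenced, all of them male C57BL/6J animals aged 4 months. Control mice (n = 5) had no tumor and received a mock injection into the peritoneal cavity of buffered saline with albumin, and Control + rFibcd1 mice (n = 5) had no tumor and received the recombinant secreted protein rFibcd1 by the same route. LLC mice (n = 3) carried Lewis lung carcinoma, a transplanted mouse tumor line grown under the skin of both flanks, with the mock injection, and LLC + rFibcd1 mice (n = 4) carried the tumor and received rFibcd1. The study examined whether rFibcd1 changes the wasting of the diaphragm that this tumor brings about. The tissue was whole muscle. Its 10 myofiber markers were present in every group, with a summed level between 50265 and 64628 TPM (a level per transcript length that is scaled so that every sample adds up to 1000000). In such bulk samples, fewer cells of a type and less RNA per cell cannot be told apart.

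Chaperones bind unfolded protein and help it to fold, to be held in solution or to be passed on for degradation. In the heat shock response, unfolded protein releases the transcription factor HSF1, which binds arrays of the bases GAA and their complement TTC in promoters and turns on inducible chaperones. Striated muscle in addition keeps large amounts of small heat shock proteins at its Z-discs and desmin filaments, where mechanical load unfolds protein. Hspa1a and Hspa1b encode the inducible HSP70 proteins, Hspa8 the constitutive HSC70, Dnajb1 the HSP40 co-chaperone that loads substrate on HSP70, Hsph1 the HSP110 nucleotide exchange factor and Hsp90aa1 the inducible HSP90. Hspb1 (HSP27), Hspb7 (cvHSP) and Cryab (alpha B-crystallin) are small heat shock proteins, and Bag3 is the co-chaperone that couples HSP70 and small heat shock proteins to autophagy.

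The promoters of 7 of the 10 members were found in the RefSeq table (build GRCm38.p6), and those that carry a pair of inverted GAA units within the 250 bases before the start site are shown, as background to the genes. Hspa8, Hsp90aa1 and Cryab were not matched. The pair was in the windows of Hspa1a, Hspa1b, Hsph1 and Hspb1, whose SDs within groups, described further on, were 1.11, 1.33, 0.41 and 0.21. It was not in those of Dnajb1, Bag3 and Hspb7, with SDs of 0.68, 0.22 and 0.20. Whether the motif goes with the spread between mice was not tested. The capitals mark GAANNTTC or TTCNNGAA, which read the same on both strands.
Hspa1a, chr17:34972157-34972406, minus strand: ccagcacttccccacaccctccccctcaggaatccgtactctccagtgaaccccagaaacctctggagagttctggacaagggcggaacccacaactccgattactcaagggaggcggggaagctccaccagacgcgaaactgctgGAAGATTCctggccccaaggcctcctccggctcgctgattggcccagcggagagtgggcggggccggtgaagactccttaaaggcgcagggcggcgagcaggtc
Hspa1b, chr17:34959239-34959488, minus strand: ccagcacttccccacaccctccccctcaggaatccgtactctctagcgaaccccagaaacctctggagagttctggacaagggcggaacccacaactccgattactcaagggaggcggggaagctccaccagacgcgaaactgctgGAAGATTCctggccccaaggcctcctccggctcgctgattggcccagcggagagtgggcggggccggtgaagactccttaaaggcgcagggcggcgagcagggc
Hsph1, chr5:149636337-149636586, minus strand: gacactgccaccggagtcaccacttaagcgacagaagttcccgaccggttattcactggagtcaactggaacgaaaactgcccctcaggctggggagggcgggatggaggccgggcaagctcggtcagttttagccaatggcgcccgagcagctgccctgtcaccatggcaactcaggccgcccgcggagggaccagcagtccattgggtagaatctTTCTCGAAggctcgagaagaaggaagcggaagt
Hspb1, chr5:135887669-135887918, plus strand: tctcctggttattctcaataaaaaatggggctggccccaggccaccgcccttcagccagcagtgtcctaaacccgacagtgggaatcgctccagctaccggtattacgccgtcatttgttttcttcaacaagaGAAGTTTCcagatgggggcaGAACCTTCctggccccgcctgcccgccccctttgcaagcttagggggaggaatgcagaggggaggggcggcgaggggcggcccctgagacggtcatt
The windows of Hspa1a and Hspa1b were equal at 247 of 250 positions, and each held GAANNTTC once, from 104 to 97 bases before the start site. Hsph1 held TTCNNGAA once, from 33 to 26 bases before the first of its start sites, and Hspb1 held GAANNTTC 2 times. Neither pair was found in the windows of Dnajb1, Hspb7 and Bag3, which says only that these letters are not in these windows. Of 32851 promoters of the same length, 12.8% held GAANNTTC or TTCNNGAA. Arrays of 3 such units, alternating and each 2 bases apart, were in 0 of the members' windows and in 0.466% of all promoters.

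The small heat shock proteins and Hspa8 were abundant in TPM, and the inducible chaperones were low. Cryab had a mean of 1577 ± 144 TPM (SD, n = 17) and was number 40 among all genes by mean level. Hspb7 (636 ± 112), Hspa8 (601 ± 99.6) and Hspb1 (396 ± 57.4) followed, with Hspb7 and Hspa8 overlapping between mice. Bag3 (151 ± 23.1) and Hsp90aa1 (59.0 ± 20.7) were intermediate. Hsph1 (26.4 ± 7.88), Hspa1a (20.2 ± 16.7), Hspa1b (19.4 ± 18.8) and Dnajb1 (16.4 ± 7.53) were lowest, and their values overlapped. For Hspa1a and Hspa1b the SD was close to the mean. The order among these lowest genes was therefore within the spread between mice.

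**Figure D1:**
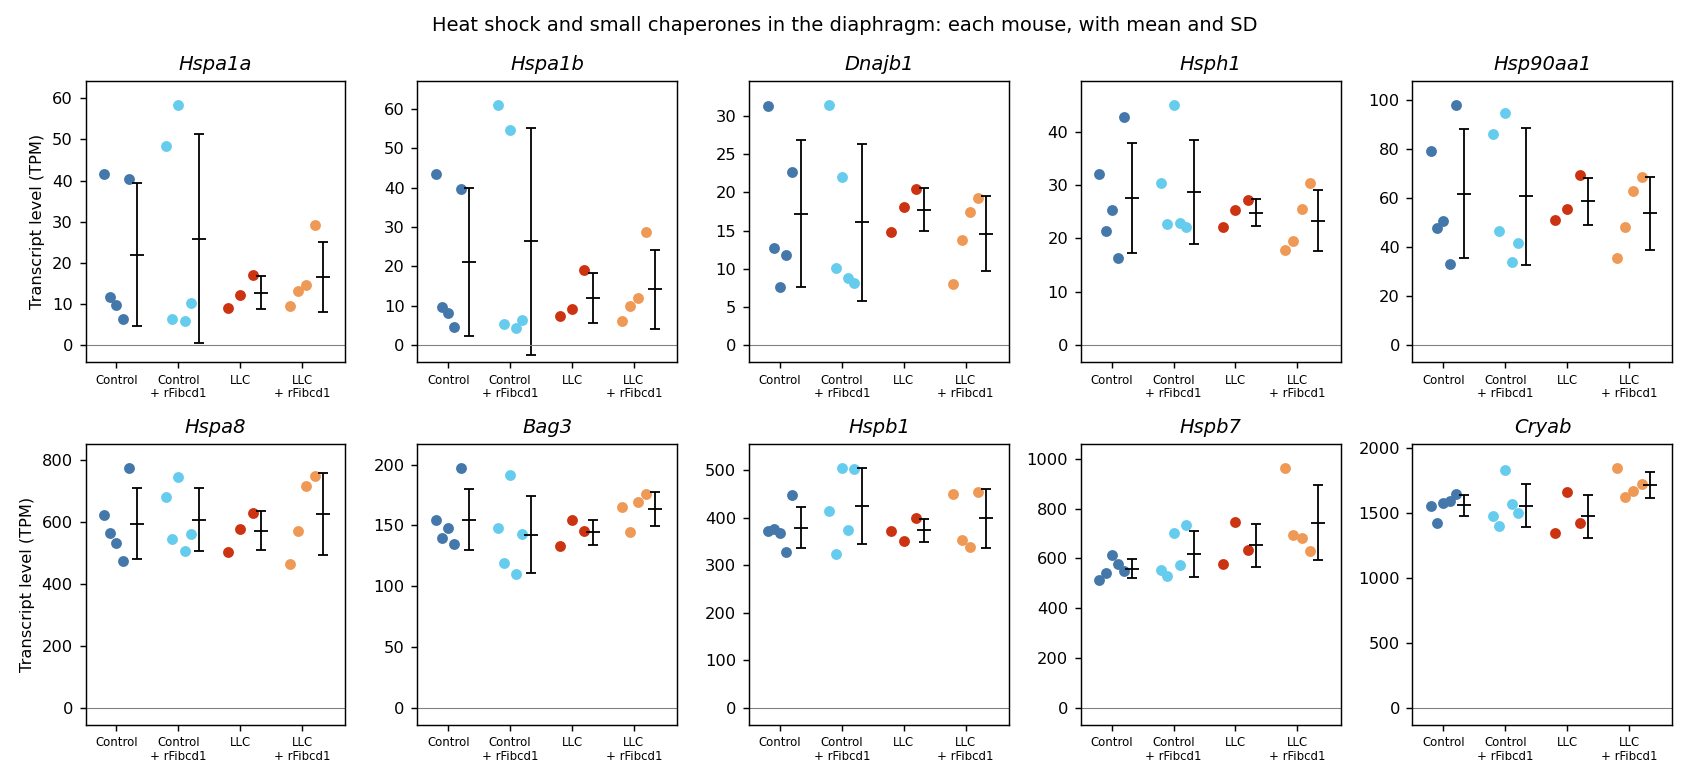
Transcript level (TPM, linear axes) of each of the 10 members in each of 17 mice by group, where points are mice and the bar beside them is the mean ± SD. In Hspa1a and Hspa1b a few mice of Control, Control + rFibcd1 and LLC + rFibcd1 stand far above the others of their group, whereas Cryab is at a like level in all mice.

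The inducible HSP70 genes differed far more between mice of 1 group than between groups. Hspa1a was at 41.5, 11.7, 9.83, 6.39 and 40.3 TPM in Control mice 1 to 5 and at 48.5, 6.36, 58.3, 5.86 and 10.3 TPM in Control + rFibcd1 mice 1 to 5. It was at 9.01, 12.2 and 17.1 TPM in LLC mice 1 to 3 and at 9.54, 13.2, 14.5 and 29.1 TPM in LLC + rFibcd1 mice 1 to 4. The highest mouse exceeded the lowest 6.49-fold within Control, 9.96-fold within Control + rFibcd1, 1.90-fold within LLC and 3.05-fold within LLC + rFibcd1. Ordered by Hspa1a, the mice had their widest gap on the log scale between 17.1 and 29.1 TPM. Above it lay 2 of 5 Control mice, 2 of 5 Control + rFibcd1 mice, 0 of 3 LLC mice and 1 of 4 LLC + rFibcd1 mice. The groups overlapped, and these shares were not tested.

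Hspa1b followed Hspa1a mouse by mouse. It was at 43.3, 9.66, 8.21, 4.71 and 39.7 TPM in Control mice 1 to 5 and at 61.0, 5.35, 54.6, 4.42 and 6.32 TPM in Control + rFibcd1 mice. It was at 7.36, 9.19 and 19.1 TPM in LLC mice and at 6.05, 10.01, 11.8 and 28.8 TPM in LLC + rFibcd1 mice. The 5 mice highest in Hspa1a (Control mice 1 and 5, Control + rFibcd1 mice 1 and 3 and LLC + rFibcd1 mouse 4) were also the 5 highest in Hspa1b. The transcripts are near-identical in part: 47.1% of the 100-base windows of Hspa1a and 49.9% of those of Hspa1b occur in the other, so that the division of reads between the genes is uncertain. An exon of Hspa1a also overlaps Gm20481.

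The HSP70 partners were high in nearly the same mice, over narrower ranges. Dnajb1 was at 31.4, 12.7, 7.60, 11.8 and 22.6 TPM in Control mice 1 to 5, at 31.4, 10.1, 22.0, 8.80 and 8.07 TPM in Control + rFibcd1 mice, at 14.8, 18.1 and 20.4 TPM in LLC mice and at 7.996, 13.8, 17.4 and 19.2 TPM in LLC + rFibcd1 mice. Hsph1 ranged from 16.4 TPM in Control mouse 4 to 45.0 TPM in Control + rFibcd1 mouse 3, and Hsp90aa1 from 33.1 TPM in Control mouse 4 to 98.0 TPM in Control mouse 5. Within the tumor-bearing groups these genes spanned less, with Hsp90aa1 at 50.9, 55.6 and 69.6 TPM in LLC mice and at 35.7, 48.2, 62.9 and 68.4 TPM in LLC + rFibcd1 mice. Those groups held 3 and 4 mice, the tumor-free ones 5 each, and a range tends to widen with more mice. The 5 mice highest in Hsph1 were the 5 highest in Hspa1a. For Hsp90aa1 and Dnajb1 the 4 highest were among those 5, and LLC mouse 3 took the remaining place. Hspa8 ranged from 465 to 775 TPM and Bag3 from 110 to 197 TPM, and both had their highest value in Control mouse 5.

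**Figure D2:**
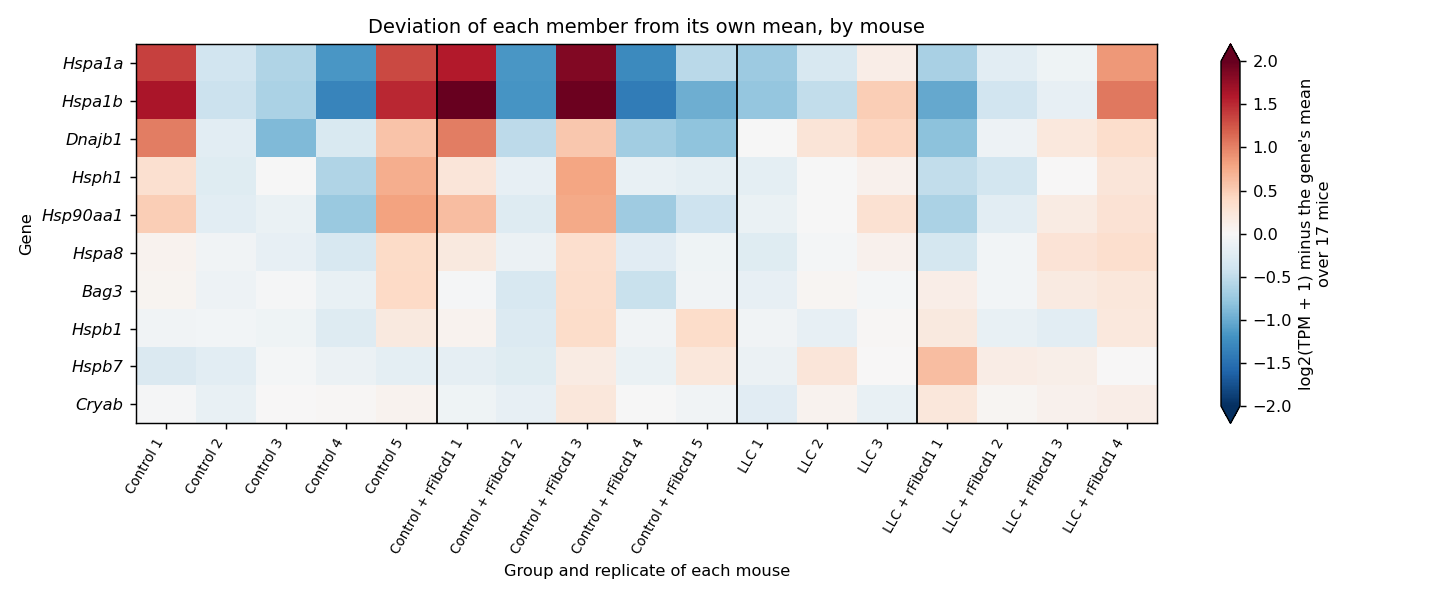
Deviation of each member from its mean over 17 mice, in log2(TPM + 1), with 1 column per mouse and black lines between groups. Red columns (above the mean) run through the 5 upper genes in Control mice 1 and 5 and Control + rFibcd1 mice 1 and 3, at deviations of up to about the limit of the scale in Hspa1b, while the small heat shock proteins stay pale except Hspb7 in LLC + rFibcd1 mouse 1.

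The spread was quantified as the SD within groups on the log2(TPM + 1) scale. It was 1.33 for Hspa1b and 1.11 for Hspa1a, against a median of 0.149 over all genes tested, and larger than that of 98.4% and 97.8% of genes. Dnajb1 had 0.68, Hsp90aa1 0.54 and Hsph1 0.41, larger than 95.2%, 93.3% and 89.4% of genes. Hspa8 (0.26), Bag3 (0.22), Hspb1 (0.21) and Hspb7 (0.20) were also above the median, which 9 of the 10 members exceeded. Cryab, at 0.12, had a larger SD than 35.4% of genes. Because the spread on this scale falls with level, each member was also set beside the genes within 0.5 log2 units of its mean level. Hspa1b was then above 98.9% and Hspa1a above 98.7% of such genes, Hspb7 above 82.7% and Cryab above 62.1%. Estimated from the steps between low values, libraries held 50.7 to 54.6 M reads (1 M is 1000000), and Hspa1a had about 464 and Hspa1b about 329 reads in the mouse with the fewest, so that counting error is small beside a spread of this size.

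**Figure D3:**
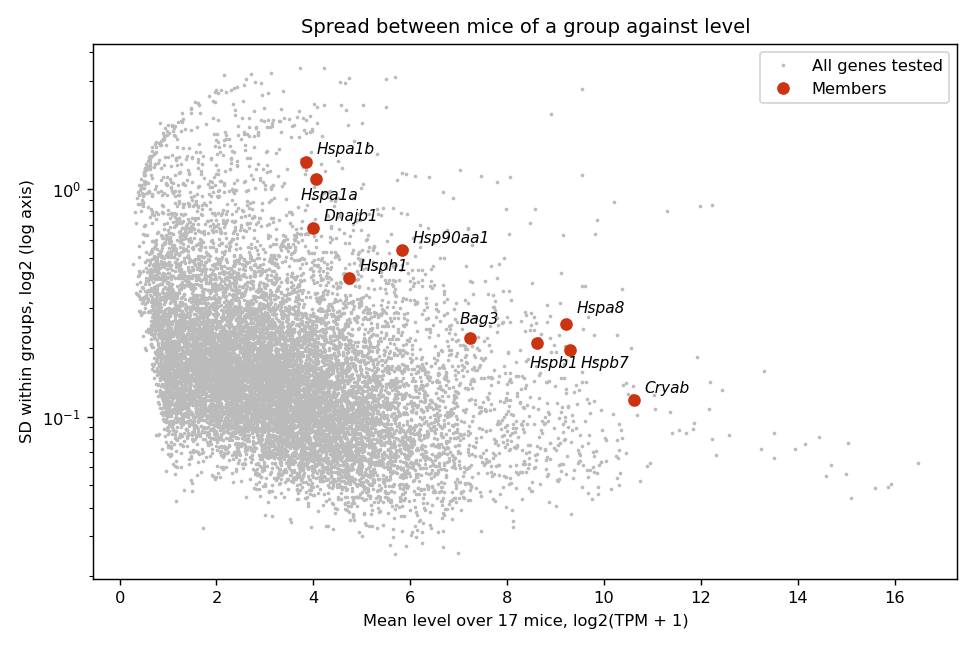
SD within groups (log2, log axis) against mean level over 17 mice (log2(TPM + 1)) for the 13305 genes tested in grey and the 10 members in red. Hspa1a and Hspa1b, with SDs of 1.11 and 1.33, lie above most of the cloud at their level, and Cryab, at 0.12, lies within it.

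Co-variation was tested for 8 pairs of members after each group's mean had been subtracted, with two-sided permutation p-values adjusted over the 8 pairs. Hspa1a and Hspa1b had a Pearson r of 0.99 and a Spearman rho of 0.99 (n = 17, adjusted p = 5.33e-05 and 8e-05, from the smallest p that the permutations can give, 1e-05). Reads from the sequence that these transcripts share can by themselves bring their values together, so this r is not evidence of 2 independently measured genes varying alike. Hspa1a also varied with Dnajb1 (r = 0.89, rho = 0.91, adjusted p = 0.0013 and 0.00068), Hsph1 (r = 0.88, rho = 0.84, adjusted p = 0.00012 and 0.00101) and Hspa8 (r = 0.84, rho = 0.85, adjusted p = 5.33e-05 and 0.000107). Hsph1 varied with Hsp90aa1 (r = 0.93, rho = 0.95, adjusted p = 5.33e-05 and 0.000107). Without the 2 mice farthest from the median, r was 0.98 for Hspa1b, 0.83 for Dnajb1, 0.89 for Hsph1 and 0.83 for Hspa8 against Hspa1a, and 0.90 for Hsph1 against Hsp90aa1.

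Both relations of Hspa1a with Dnajb1 and Hsph1 also passed the permutation test without those 2 mice (adjusted p = 0.0111 and 0.00166). In the 12 mice below the gap in Hspa1a, r was 0.92 for Hspa1a and Hspa1b, 0.79 for Hspa1a and Hspa8, 0.86 for Hsph1 and Hsp90aa1, 0.64 for Hspa1a and Hsph1 and 0.37 for Hspa1a and Dnajb1. These values are a description with no test, since the mice were chosen by Hspa1a itself after the data were seen, which narrows its range.

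**Figure D4:**
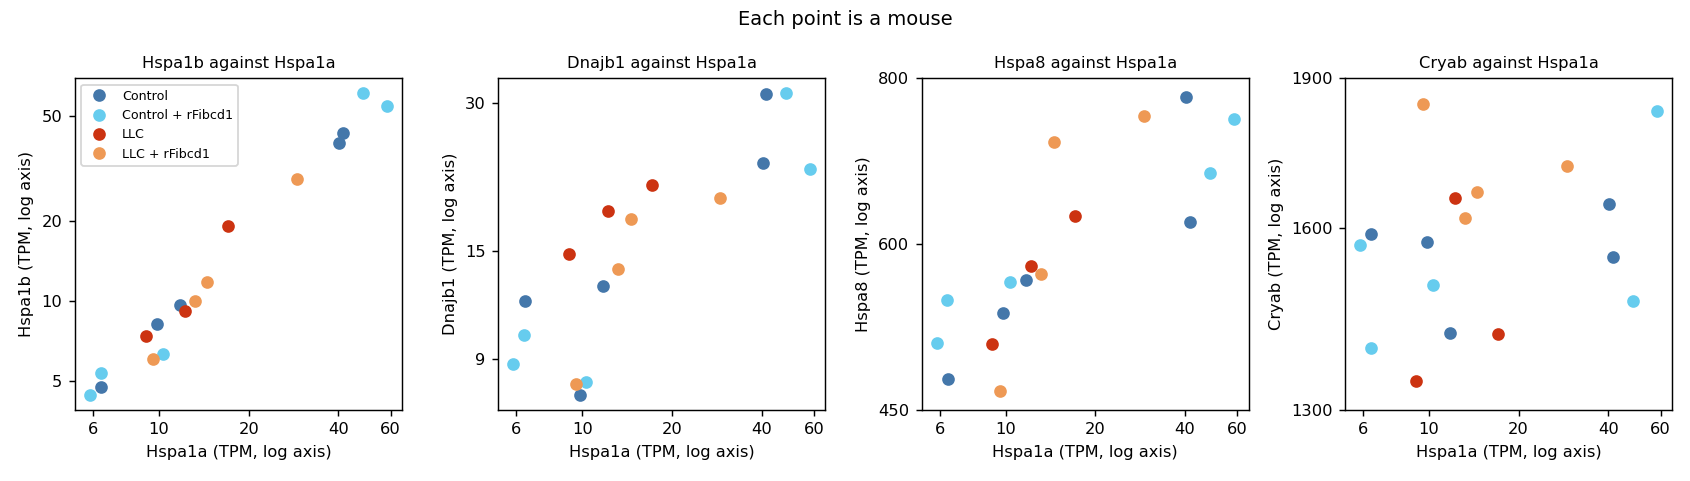
Levels in TPM on log axes of Hspa1b, Dnajb1, Hspa8 and Cryab against Hspa1a, where each point is 1 of 17 mice, colored by group. Hspa1b follows Hspa1a along a line (r = 0.99 after group means are subtracted), Dnajb1 (0.89) and Hspa8 (0.84) follow it with more scatter, and for Cryab no slope is apparent.

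Pairs among the small heat shock proteins and Bag3 varied together less closely. Hspb7 and Cryab had r = 0.64 and rho = 0.61 (adjusted p = 0.0184 and 0.0316, permutation test), and LLC + rFibcd1 mouse 1 was highest in both, at 964 and 1846 TPM. Without the 2 farthest mice r was 0.50 and the adjusted p 0.302, and the call was also lost without LLC + rFibcd1 mouse 1 alone (r = 0.61) or LLC mouse 2 alone (r = 0.57). Hspb1 and Cryab (r = 0.44, rho = 0.28, adjusted p = 0.146 and 0.371) and Bag3 and Hspb7 (r = 0.31, rho = 0.22, adjusted p = 0.281 and 0.441) did not pass the test.

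Genes outside the members were ranked by their correlation, over 17 mice and after group means were subtracted, with the mean z-score of Hspa1a, Hspa1b, Dnajb1, Hsph1 and Hsp90aa1. The 5 most alike were Atf4 (r = 0.95, 130 to 188 TPM), the transcription factor of the integrated stress response, Cacybp (0.94, 33.3 to 47.1 TPM), Dnaja1 (0.94, 8.26 to 32.9 TPM), an HSP40 co-chaperone, Irf2bpl (0.94, 13.2 to 23.5 TPM) and Nfil3 (0.94, 6.46 to 33.0 TPM), a transcriptional repressor. Among 60 other chaperones and co-chaperones, 27 had an r over 0.5, beside 8.42% of all genes tested, and 4 had an r under -0.5, beside 5.27%. Those over 0.5 included the mitochondrial co-chaperonin Hspe1 (0.92), the HSP90 co-chaperones Ptges3 (0.91), Chordc1 (0.90) and Stip1 (0.87), and the chaperonin subunits Cct4 (0.91), Cct6a (0.89) and Cct7 (0.88). Those under -0.5 included Hsf2 (-0.75), a heat shock transcription factor, Hspa12a (-0.68) and Hspb3 (-0.56), a muscle small heat shock protein. These correlations are descriptions, since the mice share sampling and libraries across all genes.

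Immediate early genes, which are induced within minutes in stressed or handled tissue, varied with the same mean z-score to different extents. Nr4a1 had r = 0.78, Fosb 0.55, Junb 0.47, Fos 0.46, Atf3 0.46, Egr1 0.44, Ier2 0.43, Dusp1 0.28 and Jun -0.35. The summed level of these 9 genes was 157 to 354 TPM in Control, 128 to 371 in Control + rFibcd1, 178 to 260 in LLC and 178 to 394 in LLC + rFibcd1 mice. Their part in the spread of the heat-inducible members was not tested.

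The same ranking was made for the mean z-score of Hspb1, Hspb7 and Cryab. The most alike were Lrrc2 (r = 0.98, 55.9 to 90.1 TPM), Des (0.91, 1138 to 1653 TPM), which encodes the intermediate filament desmin, Mgst3 (0.90, 281 to 406 TPM), Trim72 (0.89, 217 to 298 TPM), a membrane repair protein, and Actn2 (0.88, 713 to 1011 TPM), the alpha-actinin of the Z-disc. Bag3 had r = 0.67 with this mean z-score and 0.79 with that of the heat-inducible genes, and its 3 highest values, in Control mouse 5, Control + rFibcd1 mouse 3 and LLC + rFibcd1 mouse 4, fell in mice that were among the 5 highest in Hspa1a. Hspa8 had 0.13 with the first and 0.90 with the second. The 10 myofiber markers differed in their correlation with the small heat shock proteins, from Ttn (0.055), Myh4 (0.15) and Myh7 (0.35) to Tnnt3 (0.87) and Actn2 (0.88).

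Tumor-bearing mice (7) were compared with tumor-free mice (10) to ask whether chaperone transcripts differ with LLC tumors whatever the injection. Among the members, 1 of 10 was called by limma at an adjusted p under 0.05, where 44.8% of all genes tested were. This was Hspb7. It was at 514, 543, 612, 576 and 548 TPM in Control mice 1 to 5, at 555, 529, 704, 573 and 732 TPM in Control + rFibcd1 mice, at 578, 746 and 633 TPM in LLC mice and at 964, 695, 681 and 630 TPM in LLC + rFibcd1 mice. The 2 highest values lay in tumor-bearing mice and the next 2 in Control + rFibcd1 mice 5 and 3, so that tumor-bearing and tumor-free mice overlapped. The difference was 0.25 ± 0.092 (SE) in log2(TPM + 1), with a 95% interval from 0.054 to 0.44 (adjusted p = 0.0383), beside a median over all genes of 0.13. The call was lost with median-ratio scaling, which centers that median (0.10, adjusted p = 0.517), after mitochondrially encoded transcripts were left out of the total (0.16, adjusted p = 0.214) with quantile normalization (0.17, adjusted p = 0.186) and with no filter on low values, and it held in 6 of 17 fits that left out 1 mouse.

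Other features of the libraries moved with the tumor as well. Mitochondrially encoded transcripts made up 45.9 to 48.4% of TPM in Control, 45.4 to 50.4% in Control + rFibcd1, 41.3 to 44.3% in LLC and 43.7 to 46.5% in LLC + rFibcd1 mice. Among all genes 38.8% rose and 5.98% fell in tumor-bearing mice. Of 10 myofiber markers 6 fell and 0 rose, and their summed level was 57349 to 64628 TPM in tumor-free and 50265 to 60473 TPM in tumor-bearing mice. All 4 B cell markers rose (2.34 to 128 TPM summed against 17.1 to 253), as did all 4 T cell markers (0.15 to 6.80 against 1.05 to 18.7), all 4 neutrophil markers (1.68 to 77.1 against 43.7 to 203) and 2 of 3 macrophage markers (13.9 to 64.5 against 30.2 to 65.9). So did 3 of 4 endothelial markers (130 to 161 against 152 to 194), 1 of 4 adipocyte markers (281 to 2246 against 465 to 4723) and 1 of 3 mesothelial markers (14.98 to 111 against 45.8 to 129). None of these markers was at 0 in all mice. Their part in the Hspb7 difference was not tested.

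The other 9 members did not pass this test. Hspa1a (-0.24, 95% interval -1.33 to 0.85) and Hspa1b (-0.31, -1.61 to 0.99) had wide intervals. Hspa8 (0.0019, -0.25 to 0.25), Cryab (0.047, -0.073 to 0.17) and Hspb1 (-0.041, -0.25 to 0.17) had narrower ones that included 0, beside a median over all genes of 0.13. Bag3 was at 0.079 (-0.14 to 0.30), Hsph1 at -0.18 (-0.58 to 0.22), Hsp90aa1 at -0.051 (-0.58 to 0.48) and Dnajb1 at 0.073 (-0.59 to 0.73), with adjusted p from 0.459 to 0.881.

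LLC mice were compared with Control mice to ask about the tumor without rFibcd1. Limma called 0 of 10 members, where it called 35.8% of all genes, and at an unadjusted p under 0.05 the count was also 0 of 10, where 48.3% of all genes passed. Hspb7 differed by 0.22 ± 0.14 (95% interval -0.071 to 0.51, adjusted p = 0.212) and Hspa1a by -0.41 ± 0.76 (-2.03 to 1.20, adjusted p = 0.689). Cryab was at 1549, 1420, 1575, 1589 and 1645 TPM in Control and at 1343, 1656 and 1418 TPM in LLC mice, which overlapped (-0.083 ± 0.083, adjusted p = 0.443). The direction of Hsp90aa1 (0.016), Dnajb1 (0.19), Hspa8 (-0.043), Hsph1 (-0.075) and Hspb1 (-0.013) in this comparison changed with the scaling or with 1 mouse left out.

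LLC + rFibcd1 mice were compared with LLC mice to ask about rFibcd1 in the presence of the tumor. Limma called 0 of 10 members, where it called 0.113% of all genes. At an unadjusted p under 0.05 there was 1 of 10, Cryab, where 22.7% of all genes passed. Cryab was at 1846, 1620, 1668 and 1718 TPM in LLC + rFibcd1 mice, and LLC mouse 2 (1656 TPM) overlapped them. The difference was 0.22 ± 0.087 (95% interval 0.037 to 0.41, adjusted p = 0.200 in limma). Bag3 (0.18, -0.16 to 0.52) and Hspb7 (0.17, -0.13 to 0.48) had intervals that included 0, and Dnajb1 (-0.32, -1.34 to 0.71) had a wide one.

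Control + rFibcd1 mice were compared with Control mice to ask about rFibcd1 without a tumor. Limma called 0 of 10 members, as it did 0% of all genes, and 0 of 10 had an unadjusted p under 0.05, beside 4.39% of all genes. The estimates ran from -0.13 for Bag3 (95% interval -0.41 to 0.15) to 0.15 for Hspb1 (-0.12 to 0.42). Those of Hspa1a (-0.019, -1.42 to 1.38) and Hspa1b (-0.045, -1.71 to 1.62) were near 0 with wide intervals. A p that misses the threshold does not show that these levels are equal.

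**Figure D5:**
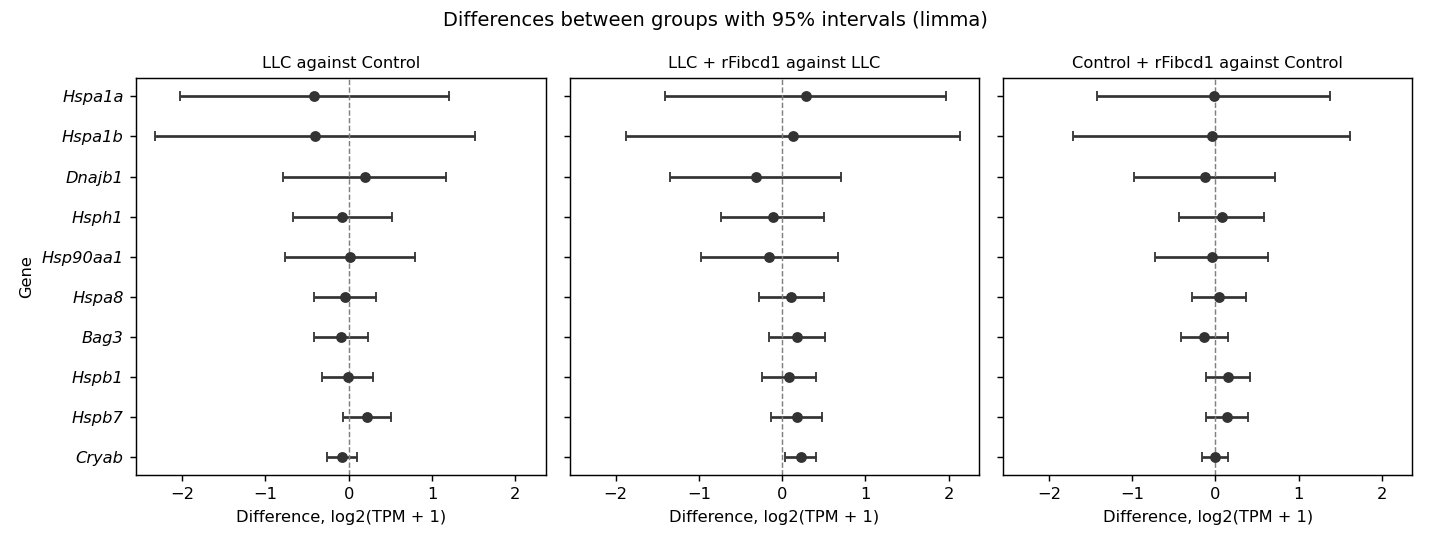
Difference between groups in log2(TPM + 1) with its 95% interval (limma) for the 10 members in 3 comparisons. The intervals of Hspa1a and Hspa1b are the widest of the 10 in each panel, and the interval of Cryab for LLC + rFibcd1 against LLC, from 0.037 to 0.41, is the one that leaves out 0.

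LLC + rFibcd1 mice were also set against Control mice. Limma called 0 of 10 members, where it called 3.08% of all genes, and Hspb7 alone had an unadjusted p under 0.05, as did 19.9% of all genes. All LLC + rFibcd1 mice (630 to 964 TPM) lay above all Control mice (514 to 612 TPM) in Hspb7, as 8.88% of all genes tested had no overlap between these groups. The difference was 0.39 ± 0.12 (95% interval 0.13 to 0.66, adjusted p = 0.0978). The interaction of tumor and rFibcd1 called 0 of 10 members and 0% of all genes, and 0 of 10 had an unadjusted p under 0.05, beside 8.58% of all genes. Its estimates ran from -0.19 for Dnajb1 to 0.31 for Bag3, and Cryab had 0.23 (-0.012 to 0.47, adjusted p = 0.605). These comparisons share Control or LLC mice and are not independent of one another.

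Among the 60 other chaperones and co-chaperones, all of which passed the filter, 13 rose and 7 fell in tumor-bearing mice, where 38.8% of all genes rose and 5.98% fell. This split depended on the scaling: with median-ratio scaling 0 rose and 15 fell (19.1% and 17.1% of all genes), without mitochondrially encoded genes 3 rose and 13 fell (25.2% and 11.3%), and with quantile normalization 2 rose and 15 fell (13.7% and 25.0%). The list's median was 0.038 in log2(TPM + 1) on the deposited scale, and that of all genes 0.13. The 5 with the smallest p were Bag6 (0.16, adjusted p = 0.00213), a holdase for hydrophobic protein, Stub1 (0.12, adjusted p = 0.00229), the ubiquitin ligase CHIP that tags chaperone clients, Dnajb6 (0.18, adjusted p = 0.00261), an HSP40 of the Z-disc that is mutated in limb-girdle muscular dystrophy, Dnaja3 (-0.14, adjusted p = 0.00393), an HSP40 of mitochondria, and Dnajb11 (0.30, adjusted p = 0.00465), an HSP40 of the endoplasmic reticulum. With median-ratio scaling Stub1 was at -0.027, and it, Bag6 (0.010), Dnajb6 (0.033) and Dnajb11 (0.16) were no longer called, whereas Dnaja3 (-0.29) was.

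In LLC against Control mice 3 of the 60 rose and 4 fell, where 29.7% of all genes rose and 6.02% fell, with a median of 0.034 against 0.16 for all genes. With median-ratio scaling 0 rose and 14 fell (15.6% and 14.0% of all genes), without mitochondrially encoded genes 1 rose and 11 fell (18.7% and 11.02%), and with quantile normalization 1 rose and 17 fell (11.3% and 23.9%). On the deposited scale Dnajb11 rose (0.37, adjusted p = 0.0171), and Dnaja3 (-0.15, adjusted p = 0.0225), the mitochondrial HSP70 Hspa9 (-0.14, adjusted p = 0.0243), the muscle methyltransferase Smyd1 (-0.21, adjusted p = 0.0301) and the small heat shock protein Hspb2 (-0.20, adjusted p = 0.0316) fell. Exons of Hspb2 overlap those of Cryab, so that reads may be split between them. The count moved to between 0 and 14 when 1 mouse was left out, with 0 called without LLC mouse 3. The share of all genes called in those fits is not given here, so these counts do not single out the chaperones. In LLC + rFibcd1 against Control mice Stub1 was the 1 gene called (0.14, adjusted p = 0.0321), where 3.08% of all genes were, and the call was lost with each other scaling. Limma called 0 of 60 for rFibcd1 in tumor-bearing mice (7 at an unadjusted p under 0.05, where 22.7% of all genes were), 0 of 60 in tumor-free mice (2 unadjusted, where 4.39% of all genes were) and 0 of 60 for the interaction (3 unadjusted, where 8.58% of all genes were).

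Of 4 Z-disc and autophagy partners of Bag3, 1 was called for the tumor, where 44.8% of all genes were. Synpo2, the Z-disc protein through which Bag3 acts in autophagosome formation, was lower in tumor-bearing mice (-0.33 ± 0.081, adjusted p = 0.00704). Its mean was 70.4 ± 9.35 TPM (SD, n = 5) in Control, 70.9 ± 8.37 (n = 5) in Control + rFibcd1, 63.2 ± 5.31 (n = 3) in LLC and 51.3 ± 6.51 (n = 4) in LLC + rFibcd1 mice. In limma the difference from Control was -0.15 ± 0.12 for LLC mice (adjusted p = 0.346), which overlapped Control, and -0.45 ± 0.11 for LLC + rFibcd1 mice (adjusted p = 0.0416), and LLC + rFibcd1 differed from LLC mice by -0.30 ± 0.13 (adjusted p = 0.205). Des (0.090), Sqstm1 (0.14), the autophagy receptor p62, and the actin crosslinker Flnc (-0.0046) had adjusted p of 0.113, 0.0604 and 0.974 for the tumor.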

How the data were processed

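Diaphragm RNA of 17 mice was sequenced as mRNA libraries. The authors deposited 1 table of TPM values per gene and mouse, normalized so that each sample adds up to 1000000, with reads trimmed, aligned to mm10 and summarised per gene in CLC Genomics Workbench per the study's methods. The labels name a stranded library kit and the study's methods a different TruSeq kit and sequencer, and whether strand was used in counting is not given in the sources used here, so that reads of genes with overlapping exons may be shared. From TPM, log2(TPM + 1) was taken, genes reaching 1 TPM in 3 or more mice were retained, and 1 linear model over the 4 group means was fitted with limma 3.58.1 in R 4.3.3 (eBayes with trend, two-sided, Benjamini-Hochberg over all 13305 genes tested, called at an adjusted p under 0.05, 13 residual degrees of freedom). A difference on this scale understates the change of low genes. The analysis was tested on simulated data. TPM does not keep depth. With GENCODE exon lengths, 80.8 to 83.4% of low values lay within 0.02 of a whole read, so that read numbers are estimates. Co-variation used 100000 permutations within groups over 8 pairs. All 10 members are named, with, per comparison, up to 5 other chaperones with the smallest p among those called, and the 5 genes most alike in pattern. The members and lists were chosen with earlier results of these data known. Alternatives were a pseudocount of 0.1 TPM, no filter, median-ratio scaling, totals without mitochondrially encoded genes, quantile normalization, only the groups compared, a block for the replicate number, Dunn's test (which called 0 of 13305 genes in each of the comparisons it was run on), the sum of Hspa1a and Hspa1b, and each mouse left out.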

Additional observations from a re-analysis of the deposited data

How the results depend on the processing

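Of 60 estimates (10 members in 6 comparisons), 34 changed sign in at least 1 setting, and 0 became called in a setting when they were not called as reported. The members called in tumor-bearing against tumor-free mice fell from 1 to 0 with no filter, median-ratio scaling, totals without mitochondrially encoded genes and quantile normalization, and were 0 to 1 with 1 mouse left out, since Hspb7 had an adjusted p between 0.0219 and 0.517 over all alternatives. In LLC against Control mice, Hsp90aa1 was at -0.17 with median-ratio scaling, -0.092 without mitochondrially encoded genes and -0.12 with quantile normalization, and Dnajb1 at -0.023 with quantile normalization. In LLC + rFibcd1 against LLC mice, Hsph1 was at 0.0090 with median-ratio scaling and 0.0034 with quantile normalization. Stub1 in tumor-bearing against tumor-free mice was at -0.027 with median-ratio scaling. With 1 mouse left out, LLC against Control ran from -0.18 to 0.21 for Hsp90aa1, -0.041 to 0.44 for Dnajb1, -0.12 to 0.058 for Hspa8, -0.24 to 0.097 for Hsph1 and -0.062 to 0.050 for Hspb1. LLC + rFibcd1 against LLC ran from -0.28 to 0.024 for Hsp90aa1, -0.014 to 0.50 for Hspa1a, -0.26 to 0.51 for Hspa1b and -0.24 to 0.0014 for Hsph1. Hspa1b in LLC + rFibcd1 against Control ran from -0.67 to 0.095, and Dnajb1 in the interaction from -0.44 to 0.092. Other chaperones called in LLC against Control, 7 as reported (35.8% of all genes called), numbered 14 with median-ratio scaling (29.6%). They numbered 12 without mitochondrially encoded genes (29.7%), 18 with quantile normalization (35.2%) and 11 with only the groups compared (39.3%). Dunn's test called 0, and 0 of all genes. With 1 mouse left out they numbered 0 to 14, and the share of all genes in those fits is not given here. In LLC + rFibcd1 against Control the other chaperones called, 1 as reported (3.08% of all genes), numbered 0 with median-ratio scaling (2.68%). They also numbered 0 without mitochondrially encoded genes (2.75%), with only the groups compared (1.95%) and with Dunn's test (0%). With 1 mouse left out they numbered 0 to 2, again without a share of all genes. With quantile normalization Stub1 was not called there either, and the 1 call was Dnaja2, which was lower. In the 12 mice below the widest Hspa1a gap, chosen by that gene after seeing the data and so over a narrowed range, r was 0.37 for Hspa1a and Dnajb1, 0.64 for Hspa1a and Hsph1 and 0.74 for Hspb7 and Cryab. Leaving out mice gave 0.57 to 0.75 for Hspb7 and Cryab, and 0.50 without the 2 farthest from the median. The causes of these changes were not tested.

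Same-numbered mice were mostly not alike: 4 of 22 same-numbered pairs had a correlation over 0.1 (from -0.46 to 0.49), and 1 of 17 samples correlated best with its own number. What the replicate numbers stand for is not given in the sources used here, and these correlations do not settle it. With a replicate block, 0 members were called in tumor-bearing against tumor-free mice (Hspb7 0.27, adjusted p = 0.0752), and in LLC against Control Hsp90aa1 was at -0.053 and Hspb1 at 0.049. Other chaperones called under the block numbered 9 for tumor-bearing against tumor-free, where the block called 3782 of all 13305 genes, 0 for LLC against Control, where it called 5, and 0 for LLC + rFibcd1 against Control, where it called 173.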

Other observations

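Cirbp, the cold-inducible RNA-binding protein whose transcript is known to fall when cells are warmed and to rise when they are cooled, varied opposite to the heat-inducible members. It was singled out after its values were seen. Its correlation with the mean z-score of Hspa1a, Hspa1b, Dnajb1, Hsph1 and Hsp90aa1 was -0.89 over 17 mice after group means were subtracted, number 4 from the lowest among the genes tested that are no member. The 5 mice with the lowest Cirbp were the 5 with the highest Hspa1a: Control + rFibcd1 mouse 3 (15.4 TPM), Control + rFibcd1 mouse 1 (18.7), Control mouse 5 (19.8), LLC + rFibcd1 mouse 4 (21.9) and Control mouse 1 (25.6). The next lowest was Control mouse 2, at 27.4 TPM. The related cold-inducible gene Rbm3 had r = -0.56, and 4 of its 5 lowest values fell in the same mice. No body or tissue temperature was analysed here, and the relation was not tested.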
